A study of Mus musculus with 16 samples.

Results

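The 41 forkhead (Fox) transcription factor genes were examined in 9 ChIP-seq peak lists from primary mouse bone-marrow macrophages. The members were chosen by gene symbol, and a peak was assigned to a member when it overlapped the gene bounds or the 5 kb on either side. They are 41 of the 21887 protein-coding genes with bounds in the RefSeq table of GRCm38, which were read in the same way as a background. From textbook knowledge of where each gene is active, 29 members were read as tissue-restricted or developmental and 12 as broadly expressed (Foxj2, Foxj3, Foxk1, Foxk2, Foxm1, Foxn2, Foxn3, Foxo1, Foxo3, Foxo4, Foxp1 and Foxp4).

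Forkhead proteins bind DNA through a winged-helix domain, and many of them set the fate of a tissue in the embryo, such as liver and gut endoderm (FOXA), mesenchyme and vessels (FOXC and FOXF), neural crest (FOXD3), thyroid (FOXE1) or ovary (FOXL2). A smaller set works in most cells: FOXO proteins act downstream of insulin and PI3K signalling and are kept out of the nucleus by AKT, FOXK proteins act in metabolism, FOXM1 drives genes of cell division, and FOXP1 acts in blood cells. Developmental genes that a cell does not use are commonly held by Polycomb repressive complex, whose subunit EZH2 places the silencing mark H3K27me3, while H3K27ac on the same lysine marks active promoters and enhancers.

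The cells came from femur and tibia marrow of adult C57BL/6 mice and were kept for 5 days in DMEM with conditioned medium containing M-CSF, a macrophage growth factor. In wild-type cells left untreated, H3K27me3, H3K27ac, EZH2 and the tumour suppressor p53 were mapped, and EZH2 was mapped again in wild-type cells primed with LPS (a bacterial cell-wall component) and then given nigericin, an ionophore that activates the NLRP3 inflammasome. Untreated macrophages of 4 genotypes (Ezh2 WT, Ezh2 KO, p53 WT and p53 KO) served to map SIRT1, a deacetylase. The sources used here do not say how the knockouts were made. Every group had 1 library, so differences between groups have no replicate check and carry no p-value. Because LPS alone was not mapped, what LPS and what nigericin did cannot be told apart, and "nigericin" below stands for both.

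The lists held 88037 peaks for H3K27me3, 51604 for H3K27ac, 9771 and 5128 for EZH2 (untreated and nigericin), 5068 for p53 and 18170 to 74767 for SIRT1. The sources used here give no read totals. The weakest listed peaks rested on 9 fragments for the histone marks, 7 for EZH2, 6 for p53 and 3 or 4 for SIRT1. The fold given for each peak is the ratio that the authors' caller computed, fragments at the summit over local background. It is used here to describe peaks inside one list, not to rank assays. As a check of the cell type, all 6 macrophage markers read (Csf1r, Adgre1, Cd68, Spi1, Itgam and Mertk) had H3K27ac and none had H3K27me3. Of 4 neutrophil markers 0 had H3K27ac and 2 had H3K27me3, and of 4 stroma markers, which include the Fox gene Foxc1, 0 had H3K27ac and 4 had H3K27me3. EZH2 untreated and p53 had the same input by the names in the labels.

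The chromatin of the tissue-restricted and the broadly expressed Fox genes went opposite ways. The 2 groups were set from textbook knowledge but with earlier results of these data known, so this contrast is not an independent test. An H3K27me3 peak was listed at 28 of the 29 tissue-restricted members and at 3 of the 12 broadly expressed ones, where 35.9% of all protein-coding genes had one. H3K27ac was listed at 1 tissue-restricted member and at 9 broadly expressed ones, against 37.3% of all genes. H3K27me3 without H3K27ac marked 27 tissue-restricted and 2 broadly expressed members (26.1% of all genes), and H3K27ac without H3K27me3 marked 0 and 8 (27.5%). Both marks were present at Foxs1 and Foxo4 (9.84% of all genes), and Foxp3 and Foxm1 had neither (36.6%).

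**Figure D1:**
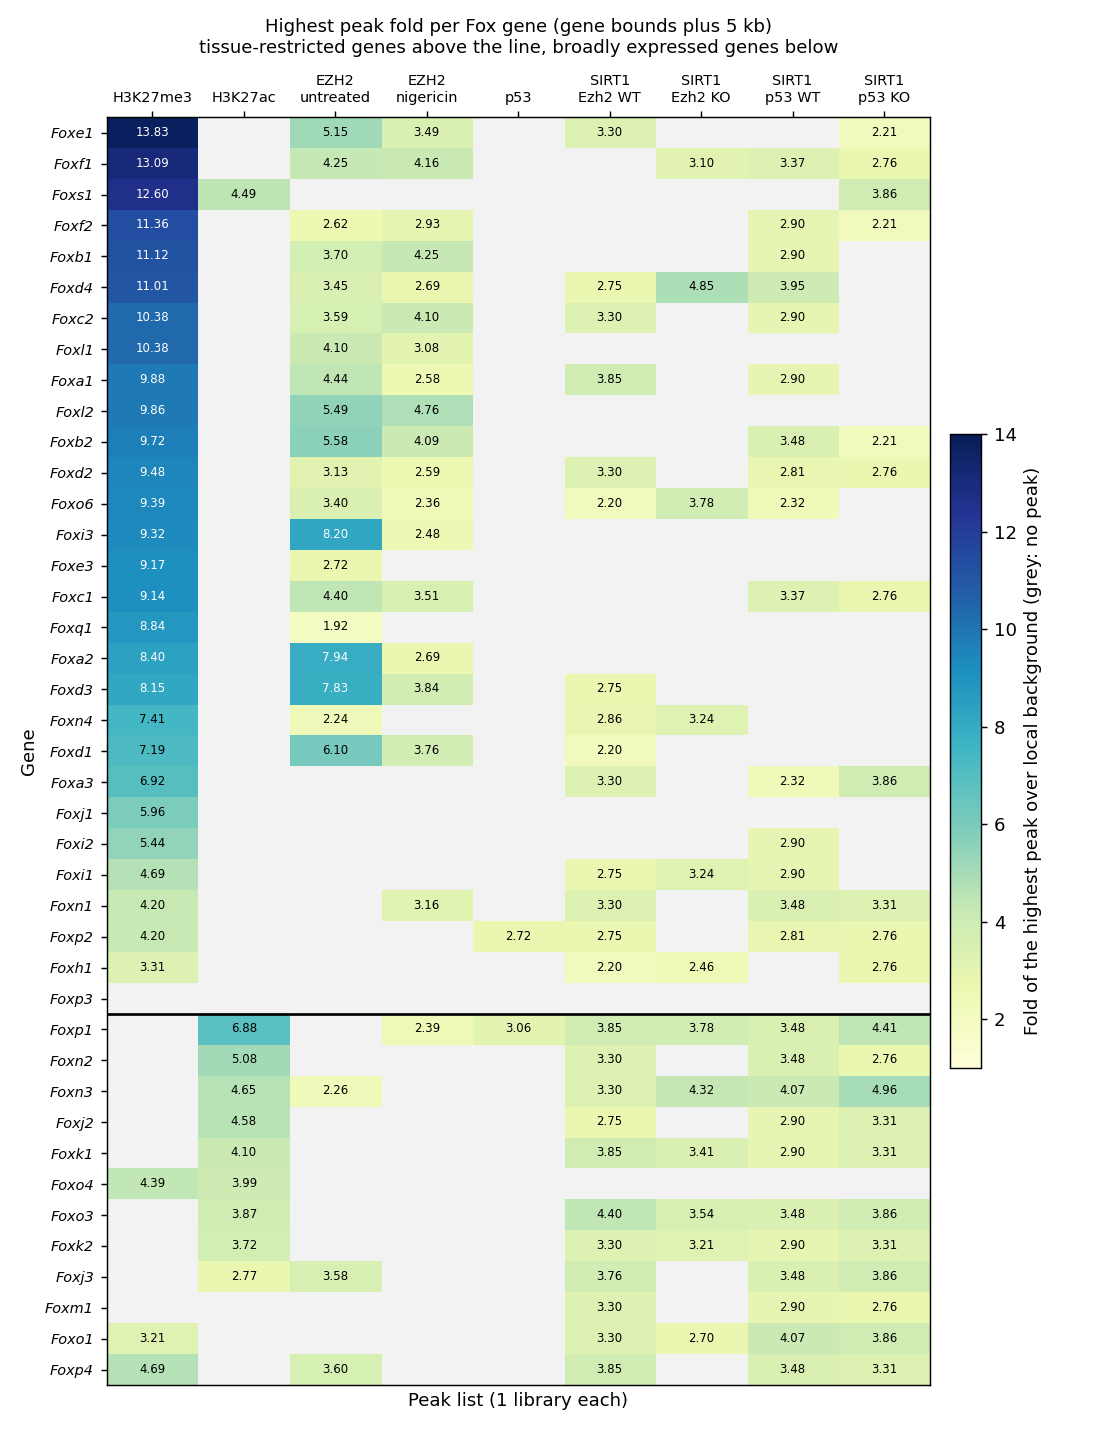
Highest peak fold over local background per Fox gene (rows; tissue-restricted above the line, broadly expressed below, each sorted by H3K27me3 or H3K27ac fold) in each of the 9 peak lists (columns); the colour and the printed value are the fold, and grey means no listed peak. H3K27me3 fills the upper block from 13.83 at Foxe1 to 3.31 at Foxh1 and leaves Foxp3 empty, while H3K27ac fills the lower block from 6.88 at Foxp1 to 2.77 at Foxj3.

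To show the DNA before starts that lie under the listed peaks, the 250 bases before a transcription start are printed for the members with the highest untreated EZH2 folds (Foxi3 and Foxa2) and for the member with the highest H3K27ac fold (Foxp1). Sequences come from RefSeq (GRCm38.p6), run 5′ to 3′ on the strand of the gene, and have CG dinucleotides in capitals. The Foxi3 stretch (chr6:70956356-70956605, plus strand) lies under an H3K27me3 peak of 9.32-fold and under EZH2 peaks of 8.20-fold untreated and 2.48-fold after nigericin. Foxa2 has 3 listed starts, and the stretch before the outermost (chr2:148046970-148047219, minus strand) lies under H3K27me3 of 7.41-fold and untreated EZH2 of 2.90-fold. The Foxp1 stretch (chr6:99520994-99521243, minus strand) lies under H3K27ac of 6.88-fold and under no EZH2 or H3K27me3 peak.
Foxi3: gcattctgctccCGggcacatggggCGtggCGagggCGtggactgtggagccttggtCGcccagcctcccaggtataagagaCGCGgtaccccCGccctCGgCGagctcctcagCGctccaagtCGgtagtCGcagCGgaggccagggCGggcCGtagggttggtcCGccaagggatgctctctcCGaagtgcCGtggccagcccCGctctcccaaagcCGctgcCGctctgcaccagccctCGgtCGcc
Foxa2: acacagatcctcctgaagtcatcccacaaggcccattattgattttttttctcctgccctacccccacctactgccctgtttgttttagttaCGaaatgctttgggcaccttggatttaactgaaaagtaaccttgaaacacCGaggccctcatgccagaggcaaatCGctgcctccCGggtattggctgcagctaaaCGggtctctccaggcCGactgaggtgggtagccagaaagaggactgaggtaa
Foxp1: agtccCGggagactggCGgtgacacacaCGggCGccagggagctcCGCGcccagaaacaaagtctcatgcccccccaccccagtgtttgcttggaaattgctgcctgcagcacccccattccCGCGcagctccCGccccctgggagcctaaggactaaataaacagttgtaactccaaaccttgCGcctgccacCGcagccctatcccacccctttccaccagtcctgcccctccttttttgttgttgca
The printed stretches hold 24 CG for Foxi3, 6 for this start of Foxa2 and 11 for Foxp1. A start of Foxa2 further in (chr2:148045465-148045714 before it, 13 CG) lay under the strongest EZH2 peak of that gene, 7.94-fold. The sequence table held 26 of the 41 members. In windows of 300 bases (250 before and 50 after the start) the 18 tissue-restricted members of the table had a median of 18.5 CG (range 5 to 32), the 8 broadly expressed ones 34 (6 to 59). The lowest of these 8 was Foxn3, whose listed start lies inside the gene, away from its outer end. The median over all 27025 genes in the sequence table was 7. Among the tissue-restricted members, the 13 with an untreated EZH2 peak had a median of 25 CG (10 to 32) and the 5 without had 6 (5 to 22). The highest of those 5 was Foxa3 with 22. The forkhead core TGTTTAC, read on both strands (GTAAACA on the other), was in the window of 1 member, Foxa1, or 3.85% of the 26, and in 3.55% of all genes of the table.

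H3K27me3 lay over the tissue-restricted genes in broad domains. The highest fold per member had a median of 9.25 (range 3.31 to 13.8), and all genes with the mark had a median of 5.19. The mark covered a median of 81.2% of the window of a tissue-restricted member, or 11.7 kb (1.74 to 22.3 kb), against 14.3% for all genes with the mark. These genes are short, with a median length of 3.75 kb against 17.2 kb for all protein-coding genes. The part of gene length in the covered share was not tested.

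The strongest H3K27me3 was at Foxe1, the thyroid and palate factor (13.8-fold, 55 fragments, rank 23 of the list), inside a single peak of 27264 bp (chr4:46328299-46355562). Foxf1, needed in lung and gut mesenchyme, followed with 13.1-fold (52 fragments, rank 42) in a peak of 16042 bp that also covered the neighbouring non-coding RNA gene Fendrr. Foxs1 (12.6), Foxf2 (11.4), Foxb1 of the neural tube (11.1) and Foxd4 (11.01) came next. The values of Foxs1 and Foxf2 are from peaks in a flank that did not reach the gene. The peak over Foxf2 itself had 10.6-fold. The whole window was covered at 6 members: Foxb2, Foxd1, Foxd4, Foxe1, Foxf1 and Foxl2. The widest peak at a Fox gene was at Foxd4, with 27435 bp.

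H3K27me3 was lower at 7 members with the mark and absent at Foxp3. Foxh1, which encodes a partner of SMAD proteins in Nodal signalling, had 3.31-fold (16 fragments), and both of its peaks met the neighbour Kifc2. Foxn1 of the thymic epithelium had 9 small peaks of at most 4.20-fold. Foxp2, a factor of the developing brain and the longest tissue-restricted gene (541 kb), had 3 peaks, the strongest of 4.20-fold over one end of the gene (chr6:14900092-14902469), and 0.684% of its window was covered. Foxi1 of the inner ear (4.69, in a flank), Foxi2 (5.44), Foxj1, which drives motile cilia (5.96), and Foxa3 of the liver (6.92) filled the range up to 7-fold. Foxp3, the factor of regulatory T cells, had no peak in any of the 9 lists.

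Untreated EZH2 was listed at 20 of the 29 tissue-restricted members, where 16.7% of all protein-coding genes had it, and at 3 of the 12 broadly expressed ones. With q of at most 0.05 the counts were 16 and 2, against 5.68% of all genes. The highest fold per tissue-restricted member had a median of 4.17 (1.92 to 8.20), and all genes with EZH2 had a median of 2.67. Of the 9771 peaks of the list, 52 lay in Fox windows (0.532%). Of the 100 with the highest fold 6 lay there, as did 17 of the highest 1000, at 15 genes.

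The strongest EZH2 peaks were centred near the starts of 3 embryonic factor genes. Foxi3, a gene of the ectodermal placodes, had 8.20-fold (34 fragments, 95% Poisson interval 23.5 to 47.5, rank 5) over its start (chr6:70953100-70958187). Foxa2, a pioneer factor of endoderm and notochord, had 7.94-fold (29 fragments, rank 7) at chr2:148044355-148045847. Foxd3, a factor of neural crest and stem cells, had 7.83-fold (34 fragments, rank 8) at chr4:99656020-99660356. All 3 peaks covered a listed start and lay inside H3K27me3, and none met H3K27ac.

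Next in order were Foxd1 of the kidney stroma (6.10-fold, 39 fragments), Foxb2 (5.58, 35 fragments), Foxl2, the ovarian granulosa cell factor (5.49, 44 fragments), and Foxe1 (5.15, 47 fragments). These are long peaks, from 4475 bp at Foxe1 to 7221 bp at Foxl2, with more fragments at the summit than Foxi3 over a higher local background (8.33 fragments at Foxe1, 3.27 at Foxi3). At the other end Foxq1 had 1.92-fold with 21 fragments over a background of 10.5, and Foxn4, a factor of retinal neurons, had 2.24-fold with 9 fragments. The −log10 q of both was 0. A low fold at a Fox gene thus did not always mean few fragments.

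Among tissue-restricted members, untreated EZH2 was listed mostly at those with high H3K27me3 in the window. Of the 21 members with H3K27me3 of at least 7-fold, 20 had untreated EZH2 (95.2%, Wilson 95% interval 77.3 to 99.2), and Foxs1 was the exception. With q of at most 0.05, 16 of them had an untreated EZH2 peak. Of the 7 members under 7-fold, 0 had any listed untreated EZH2 peak (an upper limit of 35.4%). The members on either side of that value were Foxd1 (7.19, with EZH2) and Foxa3 (6.92, without), and 7 was chosen after the values were seen. The place of 2 members in this split rests on a flank peak over a neighbouring gene. The 12.6-fold peak counted for Foxs1 itself overlapped untreated EZH2, outside the Foxs1 window. Foxl1 took its 10.4-fold from the peak over Foxc2, while the peak over Foxl1 had 6.40-fold and held EZH2, so by that peak Foxl1 was under 7-fold with EZH2. Over all protein-coding genes the same split gave 65.9% (63.7 to 68.0) of 1946 genes and 21.6% (20.6 to 22.7) of 5915 genes, and 7.82% of genes without H3K27me3 had EZH2. The members with EZH2 had 9.38 to 22.3 kb of H3K27me3 in the window (median 12.1), and those without had 1.74 to 12.1 kb (median 5.81). In length the groups overlapped through Foxa3 alone (12.135 kb). The next longest without EZH2 was Foxj1 (9.155 kb), below all members with EZH2. These intervals, like all others given here, cover counting error only.

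**Figure D2:**
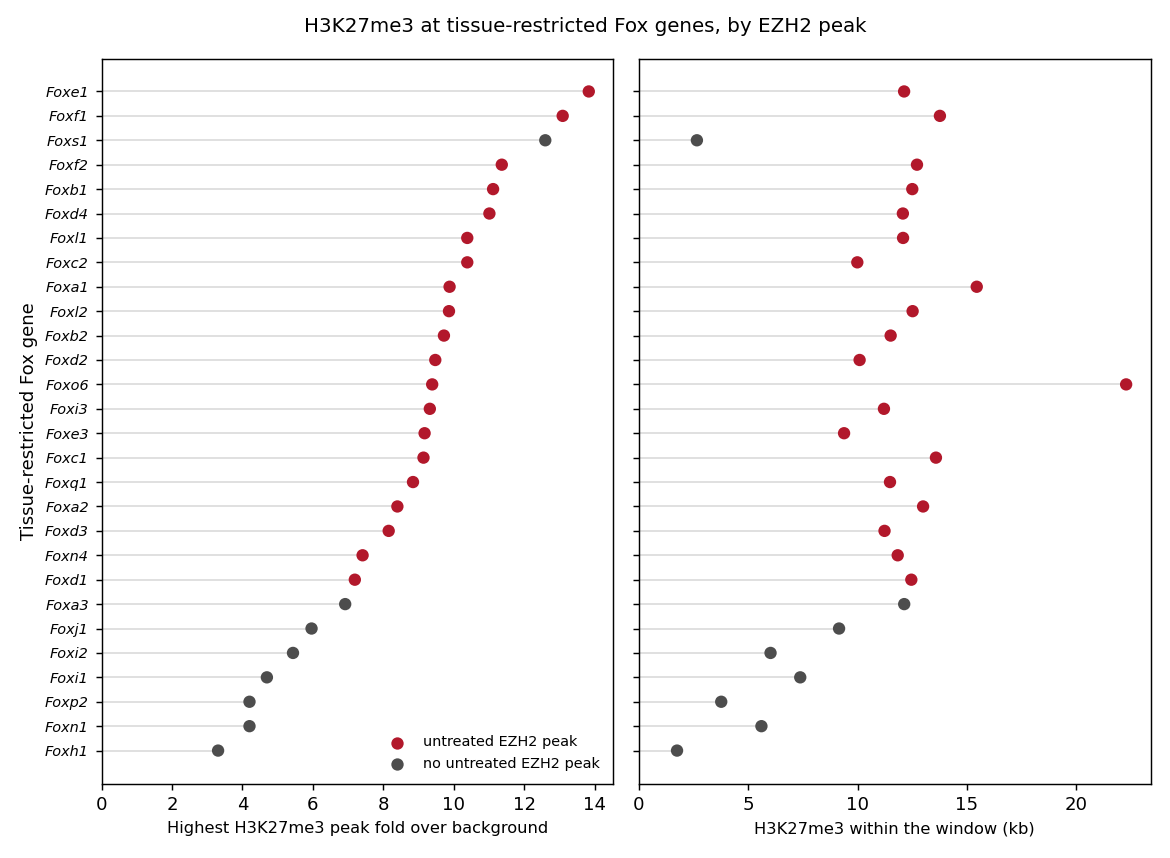
Tissue-restricted Fox genes with H3K27me3 (rows), by the highest H3K27me3 peak fold (left panel, fold over background) and by the length covered by H3K27me3 in the gene window (right panel, kb); red points have an untreated EZH2 peak and dark points have none. Every red point lies at 7.19-fold or above, and Foxs1, at 12.6-fold with 2.65 kb covered, is the 1 dark point among them, where the folds of Foxl1 (6.40 by the peak over the gene itself) and Foxs1 come from flank peaks over neighbouring genes.

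Nearly all EZH2 peaks in Fox windows overlapped H3K27me3. Of the 52 untreated peaks, 50 overlapped H3K27me3 (96.2%, 87.0 to 98.9) and 0 overlapped H3K27ac. Over the whole list, 41.5% overlapped H3K27me3 and 2.17% overlapped H3K27ac. The 49 peaks at tissue-restricted members all overlapped H3K27me3. The mark covered a median of 81.2% of the windows of members that had it, and the whole-list share is not matched for this coverage. Fox peaks were longer than the rest of the list (median 886 bp against 434 bp for the whole list), had more fragments at the summit (18 against 10) and a higher local background (4.86 against 2.78 fragments).

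At transcription starts the same order held. Of 18 tissue-restricted members with a listed start, 12 had H3K27me3 over a start (14.7% of all genes with a listed start had it) and 11 had untreated EZH2 over it (3.21%). The 1 member with H3K27me3 but no EZH2 over its start was Foxi2. None of the 18 had H3K27ac over a start. Of 8 broadly expressed members, 3 had H3K27ac over a start (Foxj2, Foxj3 and Foxp1, against 9.35% of all genes) and none had H3K27me3 or EZH2 there. The listed start of Foxn3 lies inside the gene, away from its outer end.

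**Figure D3:**
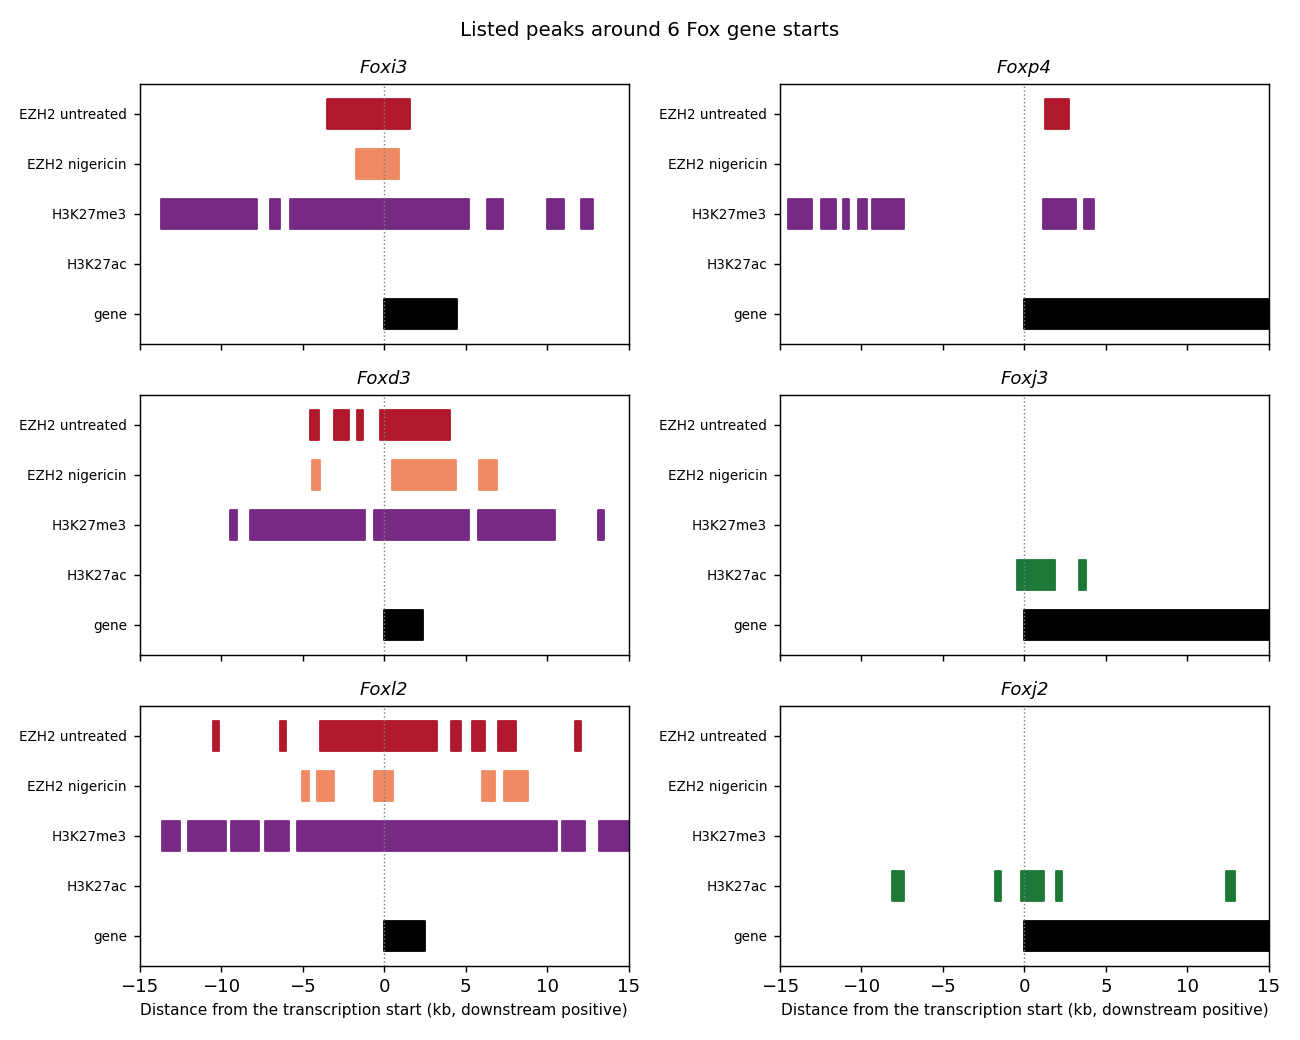
Listed peaks of EZH2 (untreated and nigericin), H3K27me3 and H3K27ac within 15 kb of the transcription start of 3 tissue-restricted genes (left: Foxi3, Foxd3, Foxl2) and 3 broadly expressed genes (right: Foxp4, Foxj3, Foxj2); the x axis is distance from the start in kb, downstream positive, and bars span the peaks and the gene. On the left EZH2 and H3K27me3 lie over the start, on the right H3K27ac lies over the starts of Foxj3 and Foxj2, and Foxp4 has EZH2 and H3K27me3 downstream of its start.

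Several tissue-restricted genes are neighbours, and 1 H3K27me3 peak was shared between members, by Foxc2 and Foxl1. Foxf1, Foxc2 and Foxl1, 3 genes of mesenchyme on chromosome 8, stand with the gene Mthfsd between them in 56.3 kb (with 5 kb flanks) with 68.8% covered by H3K27me3. That span held 7 untreated and 9 nigericin EZH2 peaks. Foxq1, Foxf2 and Foxc1 on chromosome 13 span 262 kb, of which 29.0% was covered, with 8 untreated and 10 nigericin EZH2 peaks. Foxd2 and Foxe3 on chromosome 4 span 29.8 kb, of which 65.4% was covered, with 4 and 2 EZH2 peaks. None of the 3 clusters had an H3K27ac peak, and no EZH2 peak was shared between members.

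After nigericin, EZH2 was listed at 18 of the 29 tissue-restricted members and at 1 of the 12 broadly expressed ones, where 10.6% of all protein-coding genes had it. With q of at most 0.05 the counts were 8 and 0, against 2.35% of all genes. Of the 41 members, 17 had EZH2 in both lists (6.98% of all genes), and all 17 were tissue-restricted. EZH2 was listed at 6 members without treatment alone (9.73%), at 2 after nigericin alone (3.6%) and at 16 in neither case (79.7%). The untreated list is the longer, so counts of either kind cannot be read as gain or loss.

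The highest nigericin folds at Fox genes were at Foxl2 (4.76, 15 fragments), Foxb1 (4.25, 20 fragments), Foxf1 (4.16, 13 fragments), Foxc2 (4.10, 20 fragments) and Foxb2 (4.09, 18 fragments). At Foxl2 a second peak lay over the start with 4.33-fold and 34 fragments. The 6 members listed only without treatment were Foxe3, Foxn4, Foxq1, Foxj3, Foxn3 and Foxp4. The 2 listed only after nigericin rested on few fragments: Foxn1 (3.16-fold, 10 fragments, −log10 q 0.515) and Foxp1 (2.39-fold, 7 fragments, −log10 q 0). Of the 52 nigericin peaks in Fox windows, 51 overlapped H3K27me3 of untreated cells (98.1%, 89.9 to 99.7, against 52.6% of the list). The other, at Foxp1, overlapped H3K27ac of untreated cells. Neither mark was mapped after nigericin, and the list share is not matched for H3K27me3 coverage.

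Untreated and nigericin peaks often met at Fox genes. Of the untreated peaks in Fox windows, 27 of 52 met a nigericin peak (51.9%, 38.7 to 64.9), against 16.3% of the whole untreated list. Of the nigericin peaks, 34 of 52 met an untreated one (65.4%, 51.8 to 76.8), against 34.5% of that list. Where starts were listed, the summit of the strongest untreated peak lay within 1500 bp of a start at 11 of 13 tissue-restricted members (median distance 718 bp). For the strongest nigericin peak this held at 4 of 12 members (median 2519 bp), and the limit of 1500 bp was chosen after the values were seen. Strongest here means highest fold, and the order by fragments differed. At Foxa2 and Foxl2 the peak chosen lay in a flank (8 and 15 fragments), while a peak over a start had more (15 and 34). At Foxc1 the peak chosen had 19 fragments, and one 4622 bp from the start had 22. No such share was computed over all genes.

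At the 15 members with overlapping peaks, the ratio of the nigericin to the untreated fold, each the highest among overlapping peaks, had a median of 0.732. Over all 965 protein-coding genes with such a pair the median was 0.872 (quartiles 0.688 and 1.12). The lowest ratio of all 965 genes was at Foxi3, with 0.303 (95% counting interval 0.170 to 0.519). Ratios at Foxa2 (0.336), Foxf1 (0.453), Foxe1 (0.475) and Foxd3 (0.491) also had intervals below 1, while Foxc2 (1.14) and Foxb1 (1.15) were the highest and had intervals that held 1. Over all 965 genes 83 intervals lay below 1 and 7 above.

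Ratios of fragments and of folds differed in either direction. The Foxi3 peaks held 34 fragments over a local background of 3.27 in untreated cells and 24 fragments over 9.08 after nigericin. Divided by the most common background of each list, the fragments at Foxi3 had a ratio of 0.825, and the median over the 15 members was 0.762 (0.918 over all 965 genes). By this measure the lowest ratio of the family was at Foxe1 (0.274), followed by Foxl2 (0.399), each from peaks that did not overlap each other. The nigericin peak that overlapped the same untreated peak of Foxe1 held 32 fragments against 47. At Foxl2 the nigericin peak over the start held 34 against 44 in the untreated peak there. The fragment ratio was also below the fold ratio at Foxd1 (0.420), Foxa1 (0.421) and Foxd4 (0.452). It lay on the other side of 1 from the fold ratio at Foxf1 (1.299), Foxc1 (1.11 against 0.797) and Foxc2 (0.779 against 1.14). Local background was higher after nigericin at 14 of 36 overlapping pairs in Fox windows (38.9%) and at 41.2% of all 1912 pairs. Its part in the ratios was not tested. At Foxf1, Foxe1, Foxa1, Foxl2 and Foxb1 the highest peaks of the lists did not overlap each other. Foxi3, Foxa2 and Foxd3 had the highest untreated folds of the family, and that fold is the denominator here.

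**Figure D4:**
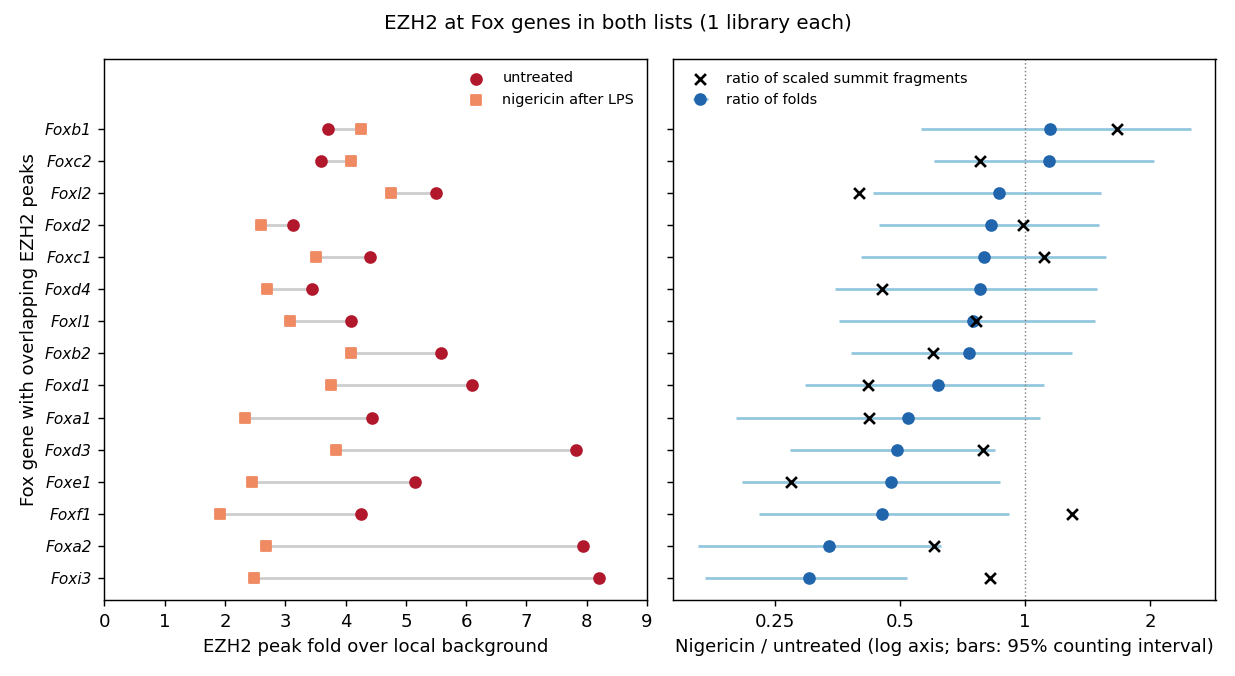
EZH2 at the 15 Fox genes (rows) with overlapping peaks in both lists: the left panel gives the highest fold over local background among overlapping peaks (circles untreated, squares nigericin after LPS), the right panel the ratio of folds (circles, with 95% counting intervals) and the ratio of summit fragments scaled by list background (crosses), on a log axis. Foxi3, at 8.20 and 2.48, has the lowest fold ratio, 0.303, with a scaled fragment ratio of 0.825. The lowest scaled fragment ratio is at Foxe1, 0.274, from peaks that do not overlap each other.

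The broadly expressed members carried H3K27ac, with Foxp1 ahead of the others. Foxp1 had 100 H3K27ac peaks over 122 kb in all (20.1% of its window of 607 kb), or 165 peaks per Mb (134 to 200) against 31.2 per Mb over all genes. Its highest peak, 6.88-fold with 51 fragments (rank 771), covered a start at chr6:99520161-99522249, and peaks of 5.46-fold and 3.96-fold covered the stretches before its other listed starts. Foxn2 had 18 peaks up to 5.08-fold, and Foxn3, a checkpoint-related repressor, had 10 up to 4.65-fold, none of them over the listed start. That start, next to chr12:99450075-99450324 on the minus strand, lies inside the gene, whose bounds reach 99563667. A start at the outer end of Foxn3 was not read. Foxj2 had 8 peaks, up to 4.58-fold within the gene and 4.49-fold over its start. Foxj3 had 2.77-fold with 49 fragments over its start (local background 17.1), again a low fold on many fragments.

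Of the genes for FOXK proteins, Foxk1 had 14 H3K27ac peaks up to 4.10-fold and Foxk2 had 1 of 3.72-fold, 534 bp inside its start. Over the 9 broadly expressed members with H3K27ac the median of the highest fold was 4.10, near the 3.82 of all genes with the mark. The FOXO genes differed among themselves. Foxo3 had 8 H3K27ac peaks, the highest of 3.87-fold (41 fragments) just inside the start, and no H3K27me3. Foxo1 had no H3K27ac and 1 H3K27me3 peak of 3.21-fold with 12 fragments (chr3:52339834-52340551), 71703 bp from its start. Foxo6, the tissue-restricted FOXO gene of the brain, had 9 H3K27me3 peaks up to 9.39-fold over 22.3 kb and EZH2 of 3.40-fold.

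Foxo4, on the X chromosome, carried both marks side by side. Its 5 H3K27me3 peaks had 2.81-fold to 4.39-fold and its 4 H3K27ac peaks 2.28-fold to 3.99-fold, the highest of them over the neighbour Il2rg. Of the 4 H3K27ac peaks, 3 overlapped an H3K27me3 peak. No EZH2, p53 or SIRT1 peak was listed there. Whether both marks lay on the same chromosomes or in different cells cannot be told apart from peak lists.

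Other members whose marks went against their group were Foxp4, Foxs1 and the broadly expressed genes with EZH2. Foxp4 had 6 H3K27me3 peaks (2.47-fold to 4.69-fold), no H3K27ac, and an EZH2 peak of 3.60-fold (23 fragments, chr17:47921896-47923351) 2266 bp downstream of its start, inside H3K27me3 of 3.58-fold. Foxj3 had EZH2 of 3.58-fold (20 fragments) 56518 bp downstream of its start with neither mark there, and Foxn3 had 2.26-fold with 8 fragments and a −log10 q of 0. Foxs1 itself lay under an H3K27ac peak of 3.94-fold (88 fragments, chr2:152915135-152934289, 19155 bp) that also covered the neighbour Mylk2. A smaller H3K27ac peak in its flank had 4.49-fold (16 fragments) and overlapped H3K27me3. The strongest H3K27me3 counted for Foxs1 lay in that flank, in a peak of 20742 bp and 12.6-fold over Dusp15 and Ttll9, and did not reach the gene. Foxm1 had neither mark and no EZH2.

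A p53 peak was listed at Foxp1 and Foxp2, 2 of the 41 members (4.88%), a share near the 6.45% of all protein-coding genes. None had a q of at most 0.05, against 0.105% of all genes. Foxp1 had 1 (3.06-fold, 8 fragments) and Foxp2 had 3 (2.72, 2.72 and 2.57-fold, 7 or 8 fragments), all inside the genes, all with a −log10 q of 0 and none over H3K27ac or H3K27me3. Both are very long genes, and their p53 densities were 1.65 and 5.45 peaks per Mb (intervals 0.0417 to 9.17 and 1.12 to 15.9) against 1.60 over all genes.

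SIRT1 peaks at Fox genes had the same median fragments at the summit as the whole lists (5 in Ezh2 KO and 4 in each other list). In Ezh2 WT, 19.5% (13.5 to 27.4) overlapped H3K27me3 of untreated wild-type cells, against 8.46% of the list. In p53 WT it was 17.9% (11.1 to 27.4) against 8.94%. The intervals of Ezh2 KO (13.0%, 4.54 to 32.1) and p53 KO (6.96%, 3.57 to 13.1) held the list shares of 9.51% and 7.76%. The list shares are not matched for H3K27me3 coverage. A SIRT1 peak was listed at 25 of the 41 members in the Ezh2 WT list (69.1% of all genes), 12 in Ezh2 KO (38.3%), 26 in p53 WT (64.1%) and 22 in p53 KO (65%). With q of at most 0.05 the counts were 0, 1, 0 and 1, against 0.658%, 1.59%, 0.535% and 1.02% of all genes. The lists differ in length, so the counts across genotypes cannot be read as change. A SIRT1 peak in all 4 lists was present at 6 members, all broadly expressed (Foxk1, Foxk2, Foxn3, Foxo1, Foxo3 and Foxp1), where 26.5% of all genes had this. No SIRT1 peak in any of the 4 lists was the case at 9 members (15% of all genes), 8 of them tissue-restricted and the other Foxo4. The broadly expressed genes are longer (median 59.0 kb against 3.75 kb for tissue-restricted ones), and so are their windows. The part of gene length in these counts was not tested.

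The 2 SIRT1 peaks with q of at most 0.05 held 8 fragments each. In Ezh2 knockout cells, Foxd4 had 4.85-fold (8 fragments, 3.45 to 15.8) at chr19:24900215-24900422, inside the gene. In untreated wild-type cells that place lay inside the H3K27me3 domain, and H3K27me3 was not mapped in knockout cells. In p53 knockout cells, Foxn3 had 4.96-fold (8 fragments) at chr12:99507017-99507712. The Foxd4 peaks in the other lists were 2.75-fold in Ezh2 wild type and 3.95-fold in p53 wild type, with no peak in p53 knockout. The highest Foxn3 folds were 3.30, 4.32 and 4.07 in Ezh2 wild type, Ezh2 knockout and p53 wild type. These values rest on 4 to 8 fragments, and their intervals overlap.

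The leading SIRT1 folds of each list were on as few fragments. In Ezh2 wild type they were at Foxo3 (4.40, 7 fragments) and at Foxa1, Foxk1, Foxp1 and Foxp4 (3.85, 6 fragments each). In Ezh2 knockout, after Foxd4 and Foxn3, came Foxo6 and Foxp1 (3.78, 6 fragments each) and Foxo3 (3.54, 7 fragments). In p53 wild type Foxn3 and Foxo1 (4.07) and Foxd4 (3.95) led with 6 fragments each. In p53 knockout, after Foxn3, came Foxp1 (4.41, 7 fragments), then Foxa3, Foxj3, Foxo1, Foxo3 and Foxs1 (3.86, 6 fragments each). Between lists, 1.19% to 13.0% of SIRT1 peaks at Fox genes met a peak of another list, against 1.94% to 8.01% over the whole lists. One such place, chosen after its values were seen, lay upstream of Foxo3. The Ezh2 knockout peak there (chr10:42277565-42277962, 3.54-fold) overlapped those of Ezh2 wild type (2.70-fold) and p53 knockout (3.75-fold). The p53 wild-type peak (2.90-fold, 4 fragments) also overlapped these last peaks, but not that of Ezh2 knockout.

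SIRT1 peaks were also counted per Mb of window, with no test between the groups. At broadly expressed members it was 55.6 (44.7 to 68.3) in the Ezh2 WT list, 10.5 (6.11 to 16.8) in Ezh2 KO, 39.5 (30.4 to 50.5) in p53 WT and 61.7 (50.2 to 75.1) in p53 knockout, against 39.9, 11.1, 32.1 and 33.98 over all genes. In the same order 9, 4, 8 and 11 of the 12 members were above the value for all genes, as were 12, 6, 13 and 9 of the 29 tissue-restricted ones. The intervals of Ezh2 wild type and p53 knockout lay above the value for all genes, and the other 2 held it. Tissue-restricted members had 33.0 (22.7 to 46.3), 5.99 (2.20 to 13.04), 19.97 (12.2 to 30.8) and 14.98 (8.38 to 24.7) peaks per Mb, but Foxp2 alone made up 0.551 of their 1.00 Mb. Without Foxp2, a step taken after the values were seen, they had 57.7 (37.7 to 84.5), 13.3 (4.89 to 29.0), 37.7 (22.0 to 60.4) and 31.1 (16.98 to 52.1), intervals that all held the value for all genes and overlapped those of the broadly expressed members. Without Foxp1 and Foxn3 the broadly expressed members had 73.2, 11.1, 46.1 and 65.2.

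**Figure D5:**
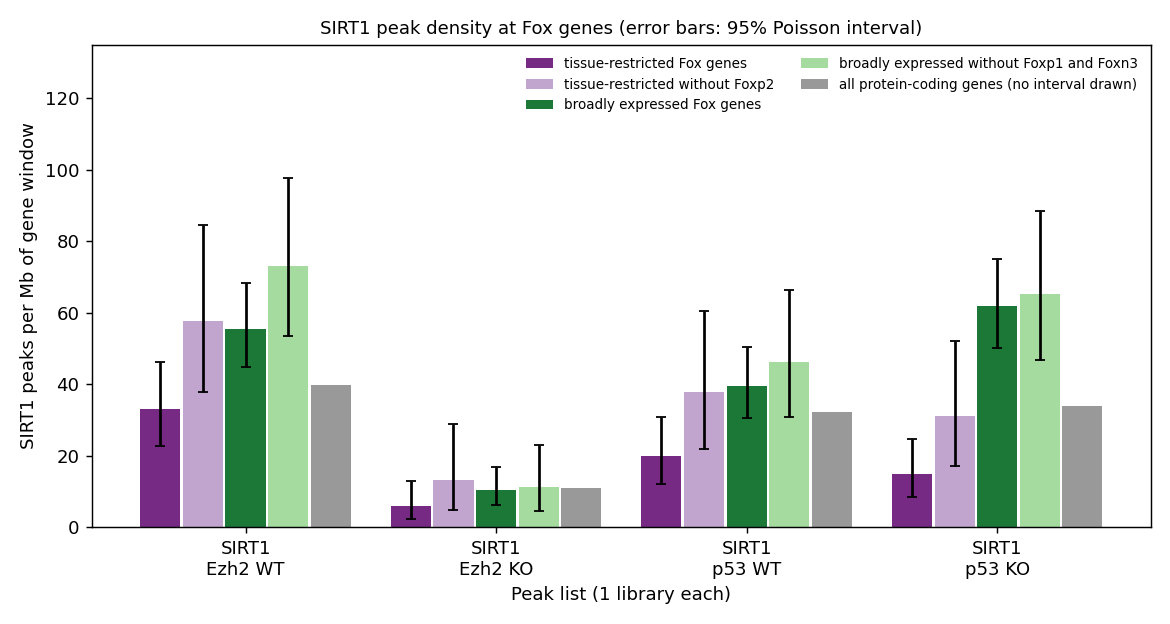
SIRT1 peaks per Mb of gene window (y axis) in the 4 SIRT1 lists (x axis) for tissue-restricted and broadly expressed Fox genes, each also without its longest genes, and for all protein-coding genes; error bars are 95% Poisson intervals, which cover counting error only. In p53 knockout the broadly expressed genes stand at 61.7 with their longest genes and 65.2 without, above 33.98 for all genes, while the tissue-restricted bars move from 14.98 to 31.1 when Foxp2 is left out.

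Most genes that act on FOXO proteins carried H3K27ac. Of 17 regulators of FOXO read (insulin receptor, PI3K and AKT genes and enzymes that modify FOXO), 16 had H3K27ac (37.3% of all genes) and 2 had H3K27me3 (35.9%). Examples were Akt1, the kinase that excludes FOXO from the nucleus (H3K27ac 6.996), the acetyltransferase gene Ep300 (6.36) and the leukocyte PI3K genes Pik3cg (5.36) and Pik3cd (4.81). Mapk8 had neither. Untreated EZH2 was listed at 3 of the 17, a share near the 16.7% of all genes.

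Of 16 FOXO target genes, 11 had H3K27ac (37.3% of all genes), led by Tsc22d3 (5.55), Txnip (4.81), Irs2 (4.69) and Klf2 (4.65). H3K27me3 was listed at 2 of them (35.9% of all genes), Cat (3.54) and Tsc22d3 (6.92), and untreated EZH2 at 1 (16.7%). Of 6 neighbours of Fox genes found in the gene table, 5 had H3K27me3 (35.9% of all genes) and 5 had untreated EZH2 (16.7%). The highest H3K27me3 folds of these 5 are those of the adjoining Fox genes and add no separate evidence: Fendrr and Mthfsd (13.1, Foxf1), Foxl2os (9.86, Foxl2), Foxo6os (9.39, Foxo6) and Gmds (9.14, Foxc1). The same holds for the highest untreated EZH2 folds of Fendrr (4.25, Foxf1), Mthfsd (3.59, Foxc2), Foxl2os (5.49, Foxl2) and Foxo6os (2.27, Foxo6). That of Gmds (2.38) was not a peak listed for a Fox gene. Exoc2, on the Foxq1 side of the chromosome 13 cluster, was the 1 neighbour with H3K27ac (3.52) and without H3K27me3.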

How the data were processed

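The 16 samples were 9 ChIP libraries and 7 inputs, and 9 peak lists were read, 1 library per list. Peaks were called with MACS2 on GRCm38 (mm10), and deepTools was also used, per the submitters' processing notes. The deposited lists give for each peak a fold (a ratio of pileup to local background, each with 1 added), the −log10 p-value and −log10 q-value, and a score. For histone marks the score equals the −log10 q multiplied by 10, and for the other proteins it is made in that way from p. The deposited histone lists end at q 0.05 and the others at p 0.01.

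Peaks were assigned to RefSeq gene bounds (GRCm38) plus 5 kb, by any overlap, on 21 chromosomes. Fragments at a summit were recovered from fold and p-value within a tolerance of 0.0001, a step tested on simulated data. Shares have Wilson intervals and counts exact Poisson intervals, both at 95%, for counting error only. The scripts used Python 3.11.15 with numpy 2.4.6, pandas 2.3.3, scipy 1.17.1 and matplotlib 3.10.9.

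The members, their split into groups from textbook knowledge, and the gene lists were chosen with earlier results of these data known. All 41 members are named or counted, with full values for the 5 highest folds per list and for members whose marks went against their group. Up to 4 genes are named per other list, and 1 marker list is not reported here. The promoter table held 26 of the 41 members, and Foxd3os was not matched. No test between groups was made. Alternatives were gene bounds alone, 1 kb around starts or gene ends, q of at most 0.05, lists of equal length, 50% overlap, summits within the window, and scaled fragments.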

Additional observations from a re-analysis of the deposited data

How the results depend on the processing

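Of 85 alternative values, 60 stayed within 1.5 times the reported count or inside its interval, and 25 moved. Some of the 60 could not move. The histone lists already end at q 0.05. The shortest EZH2 and SIRT1 lists (nigericin and Ezh2 KO) are not cut when lists are made equal in length. The order of EZH2 in both lists and in the untreated list alone turned at q of at most 0.05. It went from 17 and 6 members to 8 and 10. The counts of tissue-restricted Fox genes with H3K27me3 and with untreated EZH2, and of broadly expressed ones with H3K27ac, were among those that stayed. Within 1 kb of starts or gene ends, 1 broadly expressed member had H3K27me3, 0 had untreated EZH2 and 0 had nigericin EZH2. There, 0 members had p53, 0 had EZH2 after nigericin alone, and 9, 3, 6 and 6 had SIRT1 (Ezh2 WT, Ezh2 KO, p53 WT, p53 KO). With q of at most 0.05, nigericin EZH2 was at 8 tissue-restricted and 0 broadly expressed members, p53 at 0, and SIRT1 at 0, 1, 0 and 1 in the same order. At that limit EZH2 was at 8 members in both lists, at 10 in the untreated one alone and at 0 in the nigericin one alone, 31.03% (17.3 to 49.2) of untreated Fox peaks met a nigericin peak, and 80% (54.8 to 93.0) of nigericin ones met an untreated peak. With lists of equal length, SIRT1 was at 15 (Ezh2 WT), 15 (p53 WT) and 12 (p53 KO) members, and untreated EZH2 alone at 3. That setting leaves fewer peaks. The causes of the other moves were not tested. Histone and p53 lists have no equal-length value. No paired analysis was possible because each group has 1 library, and for the same reason no replicate could be left out. Peaks of 3 to 8 fragments limit what the SIRT1 and p53 lists can show.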
